A study of Sus scrofa with 10 samples.

Results

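FOXP1 and FOXP2 were followed across all 10 libraries and all cell classes of a single-cell series on the developing and adult pig medial entorhinal cortex (MEC). The members are 2 of the 22452 genes in the deposited tables. They were chosen by name, with earlier results of these data known. Whole cells and nuclei were kept apart throughout.

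FOXP1 and FOXP2 are forkhead transcription factors of the FOXP subfamily, which bind DNA as dimers with themselves or with each other and mostly lower the transcription of their targets. In the mammalian brain FOXP1 is known from neurons of the cortex, hippocampus and striatum, and FOXP2 from deep cortical layers, striatum, thalamus and Purkinje cells, where it has been studied for its role in vocal learning and speech. FOXP1 also acts outside the nervous system, in endothelium, heart and blood cells. In this study FOXP1 had a further role as a candidate factor for stellate cells, the RELN-expressing principal neurons of the entorhinal cortex, and it was picked there on these same libraries, so its level in excitatory neurons is not independent of that choice.

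In the pig genome Sscrofa11.1 the FOXP1 gene (ENSSSCG00000027675) lies on the minus strand of chromosome 13, at chr13:52346844-52974358 in the RefSeq annotation, and spans 627515 bp. Its longest transcript of 14 has 17 exons and 16517 bases, which is 2.63% of the locus. FOXP2 (ENSSSCG00000016639) lies on the minus strand of chromosome 18, at chr18:31335102-31890523, and spans 555422 bp. Its longest transcript of 16 has 20 exons and 7021 bases, or 1.26% of the locus, so nearly the whole of each locus is intron. The authors counted intronic as well as exonic molecules. No level of FOXP1 is set against a level of FOXP2 here, because the counts were not scaled for gene length.

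The samples were MEC of crossbred male and female fetuses, from Danish Landrace/Yorkshire sows and Duroc boar semen, at 3 ages, E50, E60 and E70 (embryonic days), and of adult sows. The labels call the postnatal samples adult, whereas the study also names them by a postnatal day, so their exact age was not settled here. Whole cells came from fresh tissue treated with papain, and nuclei came from snap-frozen tissue and were sorted on 7-AAD. There was 1 library of E50 whole cells from 3 pooled brains, 3 libraries of E60 whole cells (E60_1 and E60_2 from 1 brain each, E60_3 from 2), 3 of E70 whole cells (E70_1 from 2 brains, E70_2 and E70_3 from 1 each, per the labels), and 1 each of adult whole cells, E70 nuclei and adult nuclei from 1 brain each. Replicate libraries existed for whole cells of E60 and E70 alone, and values at other stages and in nuclei had no replicate check.

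The tables held 28229 cells, and the sum of unique molecular identifiers (UMIs, 1 per captured RNA molecule) ran from 2336865 in the adult nuclei to 55755512 at E50. The median depth was 690 UMIs for adult nuclei, 2616 for E70 nuclei and 4251 to 9403 for whole cells. Of 27777 barcodes, 449 occurred in more than 1 library, at most 1.83% of the smaller library of a pair. Cells were grouped into clusters with FOXP1 and FOXP2 kept out of the genes used, and a cluster was named "X-like" only from marker genes of class X. The unnamed cells made up 1.41% to 27.8% of a library. E60_1 and E60_2 stood apart from the other fetal libraries, with 1 and 0 cortical excitatory-like cells against 27.7% of the cells of E60_3. Results that rest on them are also given without them, except for classes that then had fewer than 3 libraries and could not be tested. Adult whole cells held no excitatory-like cell, so adult neurons were seen in nuclei only. Cerebellar (Purkinje-like, granule-like), diencephalic or midbrain, and photoreceptor or pineal-like cells lie outside the labelled cortex, and they were found mainly in the E50 library, E60_1 and E60_2, with photoreceptor or pineal-like cells mainly in the E50 library, E70_1 and E70_3.

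A level is given in CPM, the UMIs of the gene per 1000000 UMIs of all cells of a class in a library, for sums of at least 20 cells. Intervals and floors cover counting error only. FOXP1 was highest in fibroblast-like cells (the collagen-rich cells of the meninges and vessel walls), at 1366 CPM at E50, 1134 CPM in E60_1 and 1100 CPM in E60_3. Endothelial-like cells followed, with 1058 CPM at E50, 1188, 1222 and 900 CPM in the 3 E60 libraries, 848 CPM in E70_3 and 499 CPM in adult whole cells. These were 1200 ± 145 CPM (SD, n = 3 libraries) and 952 ± 268 CPM (SD, n = 6), and the ranges of the 2 classes overlapped. Of endothelial-like cells, 93.8% to 100% held at least 1 FOXP1 UMI in these libraries.

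Within each of these 6 libraries, endothelial-like cells had more FOXP1 than every class of at least 20 cells other than fibroblast-like cells. Mural-like cells (pericytes and smooth muscle) had 363 CPM at E50, 509 CPM in E60_1, 451 CPM in E60_2 and 248 CPM in the adult. Ependymal or choroid plexus-like cells, which reached 20 cells in E60_1 alone, had 425 CPM. Astrocyte and radial glia-like cells were the most even of the large classes, with a lowest level of 215, a median of 255 and a highest of 355 CPM over 8 libraries, and 63.8% to 86.8% of them held a FOXP1 UMI.

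Neurons had less. Excitatory-like cells had 208 CPM at E50, 133 CPM in E60_3, and 132, 80.6 and 195 CPM in E70_1, E70_2 and E70_3, so the E70 libraries alone spanned most of the range. Granule-like cells (cerebellar granule cells and their precursors) had 141, 186 and 180 CPM. Cells like intermediate progenitors (IP-like), which give rise to cortical excitatory neurons, had 148, 134 and 125 CPM. Interneuron-like cells lay lower, at 111 CPM at E50, 53.3 CPM in E60_3 and 107, 79.7 and 58.5 CPM in the E70 libraries. Diencephalic or midbrain glutamatergic-like cells had 102, 129 and 115 CPM, Purkinje-like cells 64.3 and 164 CPM, and Cajal-Retzius-like cells, the early RELN neurons of the marginal zone, 72.7 CPM in their only library.

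Among the remaining classes, photoreceptor or pineal-like cells had 278 ± 52 CPM (SD, n = 3), oligodendroglia-like cells 183 ± 85 CPM (SD, n = 5) and microglia-like cells 125 ± 56 CPM (SD, n = 8). Erythroid-like cells were last, with 10.4 to 63.1 CPM, and 5.94% to 19.4% of them held a FOXP1 UMI. The share is set beside those of the other classes for comparison, and how far it stands for free RNA was not tested. A single erythroid-like cluster held 178 of the 213 FOXP1 UMIs of this class in E60_1 and 128 of the 141 in E60_2, at 199.7 and 126 CPM, while the largest erythroid-like cluster had 3.85 and 0.893 CPM there, so the upper levels rest on that cluster. The median depth of the erythroid-like cells, 4181 to 8826 UMIs where at least 20 were found, was near that of the neurons. Every other class had a higher share of cells with a FOXP1 UMI than 19.4%, the lowest being 21.8% of interneuron-like cells in E70_3, where the erythroid-like share was 5.94%. In the order of the class means, neighbours from oligodendroglia-like to Cajal-Retzius-like cells differed by less than the SD between libraries, while the steps from mural-like up to endothelial-like cells and from interneuron-like down to erythroid-like cells were larger.

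**Figure D1:**
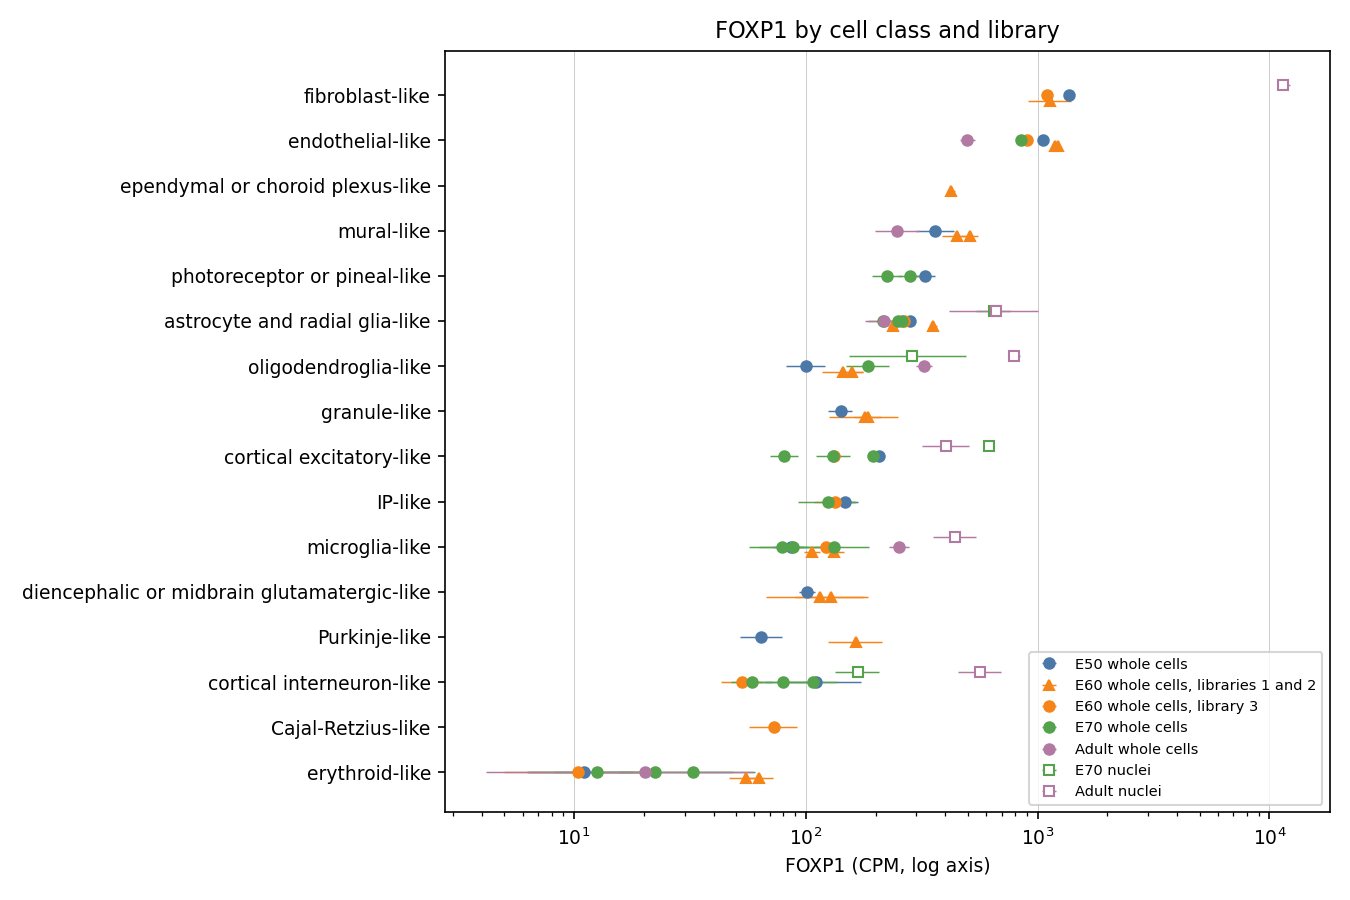
FOXP1 level in CPM (log axis) of each class, with 1 point per library and bars for the exact 95% Poisson interval of counting. Fibroblast-like and endothelial-like whole cells sit at the right, erythroid-like cells at the left, and the adult nuclei in the fibroblast-like cluster stand alone at 11494 CPM.

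FOXP2 had another order. Purkinje-like cells, the output neurons of the cerebellar cortex, were highest, with 450 CPM at E50 and 349 CPM in E60_1, and 124 of 152 and 57 of 95 cells held a FOXP2 UMI. FOXP2 was also among the 10 leading genes of that cluster by fold, next to the Purkinje markers CALB1, CA8 and LHX1 and the early B-cell factor genes EBF2 and EBF3. Fibroblast-like cells came next, at 195 CPM at E50, 151 CPM in E60_1 and 165 CPM in E60_3. The 3 fibroblast-like libraries overlapped with no other class, and Purkinje-like cells alone lay above them.

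Diencephalic or midbrain glutamatergic-like cells had 139 CPM of FOXP2 at E50, 40.4 CPM in E60_1 and 102 CPM in E60_2. Granule-like cells had 83.2, 139 and 46.3 CPM in the same libraries. The ranges of these neuron classes overlapped each other, and in both the lowest library held few UMIs, 11 and 9 of FOXP2. Ependymal or choroid plexus-like cells had 57.9 CPM. Endothelial-like cells had 33.2 CPM at E50, 56.3, 45.8 and 40.6 CPM at E60, 40.3 CPM in E70_3 and 11.3 CPM in the adult. Mural-like cells had 19.8 to 52.8 CPM.

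In cortical neurons FOXP2 was low. Excitatory-like cells had 13.4 CPM at E50, 9.26 CPM in E60_3 and 12.1, 10.3 and 6.30 CPM in the E70 libraries, a mean of 10.3 ± 2.8 CPM (SD, n = 5), and 5.66% to 11.4% of them held a FOXP2 UMI. In microglia-like cells it ran from 1 of 101 cells in E70_3 to 13.8% in E60_3, at a level of 0.972 to 15.1 CPM, and in erythroid-like cells at most 3.86% at 0 to 8.61 CPM. In the 5 libraries with excitatory-like cells the erythroid-like level was 4.83 CPM at E50 and 0 in the others. In plain CPM this was below the excitatory-like level of the same library each time. The edgeR test given further on scales the sums in another way and had the reverse order. There FOXP2 was at -0.50 ± 0.44 in erythroid-like cells, not called, and -1.42 ± 0.35 in excitatory-like cells. The excitatory-like CPM values overlapped with those of microglia-like cells. Interneuron-like cells had 0 CPM at E50, 10.4 CPM in E60_3 and 33.6, 25.7 and 37.8 CPM in E70_1, E70_2 and E70_3. The E50 value rests on 27 cells, where the 3 UMIs that a count of 0 allows would be 17.5 CPM. All 3 E70 libraries lay above the highest microglia-like value. IP-like cells had 6.98 to 14.2 CPM, astrocyte and radial glia-like cells 5.28 to 25.0 CPM and oligodendroglia-like cells 4.17 to 18.3 CPM. From IP-like cells down to Cajal-Retzius-like cells the neighbours in the order differed by less than the SD between libraries.

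**Figure D2:**
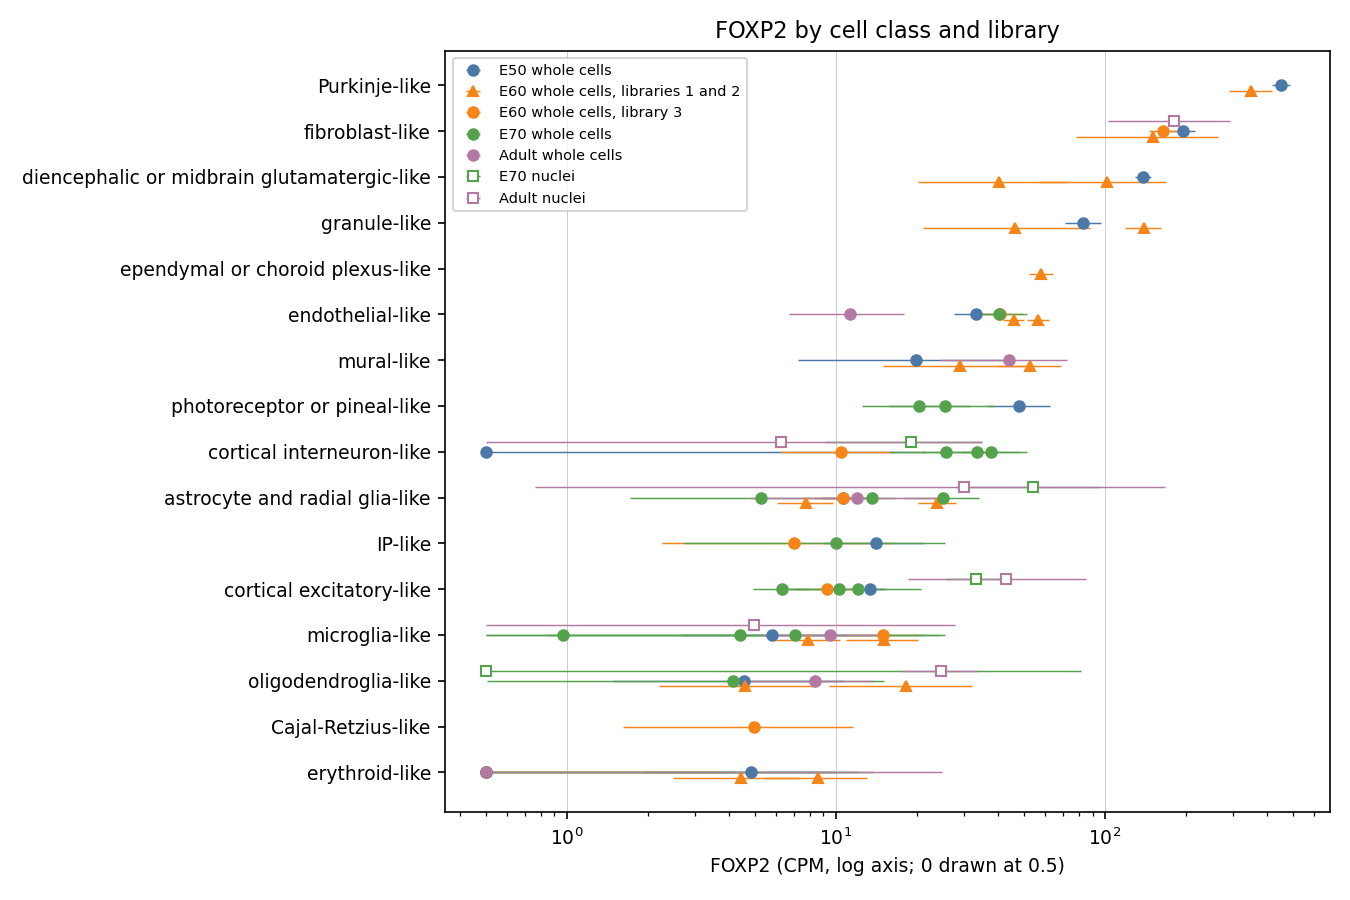
FOXP2 level in CPM (log axis, with 0 drawn at 0.5) of each class, with 1 point per library and bars for the exact 95% Poisson interval of counting. Purkinje-like cells lie between 349 and 450 CPM and fibroblast-like whole cells between 151 and 195 CPM, while cortical excitatory-like whole cells lie between 6.30 and 13.4 CPM.

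The order was tested with edgeR's quasi-likelihood test on the class sums of the 8 whole cell libraries, each of 13 classes against the mean of the others, with the library as a block and Benjamini-Hochberg adjustment over 15038 genes. Classes with sums in fewer than 3 libraries were left out, so dropping a library could also drop classes from the comparison. FOXP1 was higher in 3 classes, lower in 3 and not called in 7, and FOXP2 was higher in 4, lower in 4 and not called in 5. The share of all genes called gives the background of these counts, and it stands beside the first call in each class and direction. For the directions and classes with no call of either gene it was 17%, 18.9%, 12.1% and 9.28% higher in astrocyte and radial glia-like, excitatory-like, oligodendroglia-like and interneuron-like cells, 25.6% higher in microglia-like cells, 8.06% higher and 11.1% lower in erythroid-like cells, 5.18% and 2.93% (8.11% in all) in IP-like cells, 5.83% and 1.69% (7.52% in all) in photoreceptor or pineal-like cells, and 21.6%, 9.92%, 5.27% and 4.27% lower in endothelial-like, fibroblast-like, granule-like and mural-like cells.

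FOXP1 was higher in fibroblast-like cells by 2.68 ± 0.22 on the log2 scale (SE, adjusted p = 1.06e-15, edgeR), where 17.4% of all genes were called higher, and in endothelial-like cells by 2.41 ± 0.16 (adjusted p = 4.01e-20), where 30.3% were. The mural-like difference of 0.74 ± 0.23 (adjusted p = 0.0171, with 11.1% of genes called higher) was lost without E50_1 (adjusted p = 0.0841), without E60_1 (0.0908) or without E60_2 (0.317).

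FOXP1 was lower in interneuron-like cells (-1.58 ± 0.26, adjusted p = 5.21e-06, edgeR, with 8.44% of genes called lower), in diencephalic or midbrain glutamatergic-like cells (-1.30 ± 0.32, adjusted p = 0.00287, 5.85% of genes) and in microglia-like cells (-0.81 ± 0.19, adjusted p = 0.000243, 23.4% of genes). Excitatory-like cells had -0.43 ± 0.22 (adjusted p = 0.134, edgeR) and oligodendroglia-like cells -0.52 ± 0.23 (adjusted p = 0.110), and neither was called. Without the adult library both passed, at -0.43 (adjusted p = 0.0447) and -0.88 (adjusted p = 0.00108), and without E60_2 the excitatory-like value was -0.61 (adjusted p = 0.0422). The erythroid-like value was -0.39 ± 0.21 (adjusted p = 0.204). The test scales each sum by TMM, which the CPM of these cells does not.

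FOXP2 was higher in fibroblast-like cells by 3.04 ± 0.32 on the log2 scale (adjusted p = 1.93e-11, edgeR), in granule-like cells by 1.86 ± 0.34 (adjusted p = 5.95e-05, with 7.59% of genes called higher), in diencephalic or midbrain glutamatergic-like cells by 1.82 ± 0.35 (adjusted p = 0.000142, 7.65% of genes) and in endothelial-like cells by 0.75 ± 0.25 (adjusted p = 0.0110). The endothelial-like call was lost without E70_3 (0.63, adjusted p = 0.0593). The diencephalic or midbrain class is where the 2 genes were both called and went opposite ways, FOXP1 below and FOXP2 above the mean of the other classes. The signs also differed in 2 classes where FOXP1 was not called. It was -0.61 ± 0.29 in granule-like cells (adjusted p = 0.180, edgeR) and 0.19 ± 0.17 in astrocyte and radial glia-like cells (adjusted p = 0.455). Purkinje-like cells reached 20 cells in only 2 libraries and were not tested.

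FOXP2 was lower in oligodendroglia-like cells (-2.10 ± 0.42, adjusted p = 0.000160, edgeR, with 6.59% of genes called lower), microglia-like cells (-1.53 ± 0.31, adjusted p = 4.13e-05), excitatory-like cells (-1.42 ± 0.35, adjusted p = 0.00107, 11.3% of genes) and astrocyte and radial glia-like cells (-1.18 ± 0.28, adjusted p = 0.000724, 8.49% of genes). None of these 4 calls held without E60_1 and E60_2, where the values were -1.29 (adjusted p = 0.138), -0.74 (0.134), -0.57 (0.222) and -0.25 (0.683). The fibroblast-like, granule-like and diencephalic or midbrain classes then no longer had 3 libraries and left the comparison. The excitatory-like and astrocyte calls were also lost without E50_1 (-0.95, adjusted p = 0.0765, and -0.50, adjusted p = 0.226) or without E60_1 alone (-0.67, adjusted p = 0.125, and -0.36, adjusted p = 0.423). Both of these fits likewise lost the fibroblast-like, granule-like and diencephalic or midbrain classes, so the mean compared against changed as well. In the 6 libraries left without E60_1 and E60_2, FOXP1 stayed called in endothelial-like (2.58), interneuron-like (-1.44) and microglia-like cells (-0.59), and FOXP2 in endothelial-like cells (1.53).

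**Figure D3:**
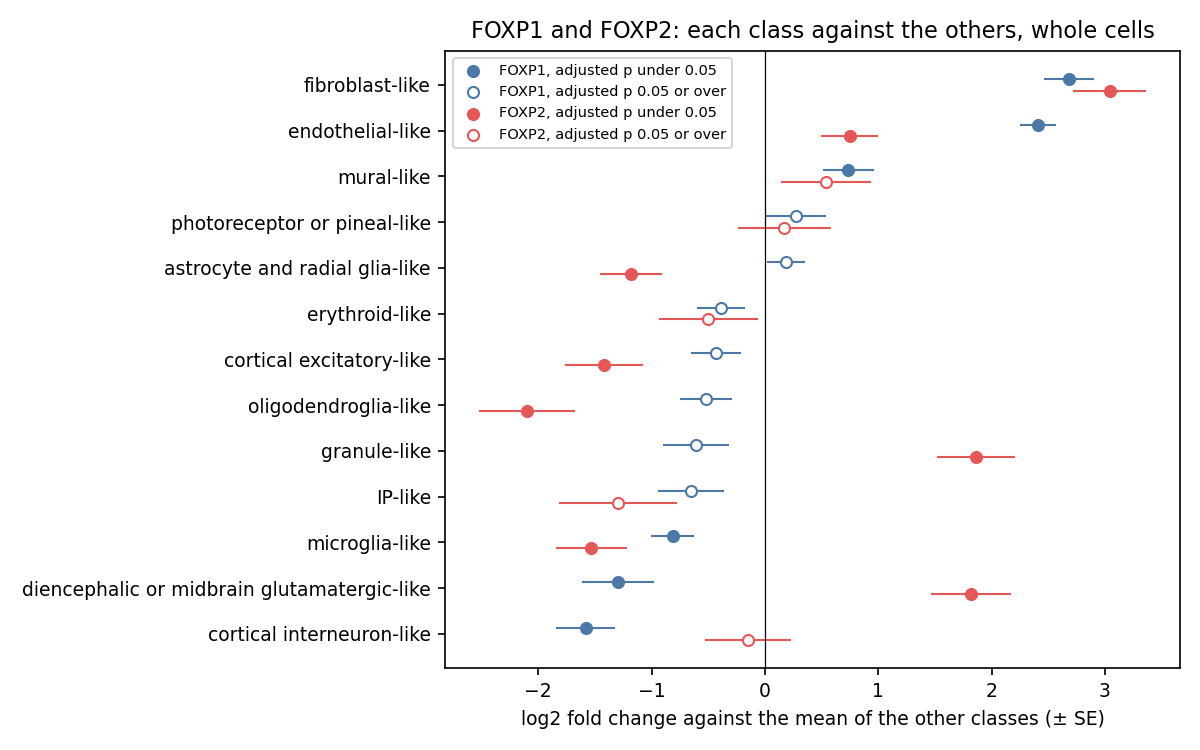
Log2 fold change of FOXP1 and FOXP2 in each class against the mean of the other classes in whole cells, with SE bars; filled points have an adjusted p under 0.05. FOXP1 and FOXP2 share the highest place in fibroblast-like cells, at 2.68 and 3.04, and lie on opposite sides of 0 in diencephalic or midbrain glutamatergic-like cells, at -1.30 and 1.82.

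Within the cortical neurons the levels varied by cluster. A cluster of excitatory-like cells led by CRYM and FEZF2, genes of deep layer projection neurons, had 464 CPM of FOXP1 at E50 and 290 CPM in E70_3, and 89.9% and 88.0% of its cells held a FOXP1 UMI. The excitatory-like cluster led by SLIT2 and EPHA3 had 79.1 to 136 CPM over 5 libraries, and the one led by NEUROD6 had 158, 130, 81.6 and 218 CPM. The CRYM and FEZF2 cluster lay above both of the others in each of the 2 libraries in which it reached 20 whole cells. FOXP2 there was 24.3 CPM at E50, against 15.01 and 7.37 CPM in the other clusters, and 13.6 CPM in E70_3, against 10.1 and 3.49 CPM. In the E70 nuclei the same cluster, of 58 nuclei, had 950 CPM of FOXP1 and 157 CPM of FOXP2, the latter from 30 UMIs in 17 nuclei, while a cluster led by ARPP21 and ST6GALNAC5, which held most excitatory-like nuclei, had 606 CPM of FOXP1 and 20.4 CPM of FOXP2. CRYM, FEZF2 and both FOXP genes were kept out of the clustering, and clusters were not tested against each other.

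RELN was low in the CRYM and FEZF2 cluster, with 27.4 CPM at E50 and 21.0 CPM in E70_3, against 49.3 and 68.7 CPM in the SLIT2 and EPHA3 cluster. Whole cells of the NEUROD6 cluster lay between these, with 37.8 CPM at E50 and 50.5 CPM in E70_3. The ARPP21 and ST6GALNAC5 nuclei had 251 CPM of RELN at E70 and 172 CPM in the adult. E70 nuclei of the NEUROD6 cluster had 240 CPM of RELN, from 13 UMIs. Those of the SLIT2 and EPHA3 cluster had 122 CPM, from 8 UMIs, and those of the CRYM and FEZF2 cluster 83.5 CPM, from 16 UMIs. Each of these was above the E70_3 whole cells of the same cluster. In the SLIT2 and EPHA3 cluster, however, whole cells had 140 CPM in E70_1 and 135 CPM in E70_2, above its nuclei. An unnamed cluster led by SEMA3C and SLC44A5, closest to the excitatory markers but without them among its leading genes, had an even FOXP1 level of 138 to 155 CPM over 4 libraries and 15.9 to 26.8 CPM of FOXP2.

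Among interneuron-like cells, the cluster led by DLX1 and ERBB4, with VIP among its leading genes, had 15.7 CPM of FOXP2 in E60_3 and 36.2, 44.2 and 55.9 CPM in the E70 libraries. The cluster led by NXPH1 and VWC2, with CORT, had 3.73 CPM in E60_3 and 28.4, 11.4 and 16.7 CPM at E70. The first was above the second in all 4 libraries for FOXP2 and in 3 of 4 for FOXP1, where E70_1 had 84.5 CPM in the first and 151 CPM in the second. These sums are small, with 3 to 51 FOXP2 UMIs each. In granule-like cells, the dividing cluster (CENPF, UBE2C, TOP2A) had 215 and 262 CPM of FOXP1 and 139 and 207 CPM of FOXP2 at E50 and in E60_1, and the NEUROD1 and CBLN1 cluster of the same libraries 89.0 and 75.3 CPM of FOXP1 and 43.2 and 40.7 CPM of FOXP2, so both genes were higher in the dividing cells of each library.

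**Figure D4:**
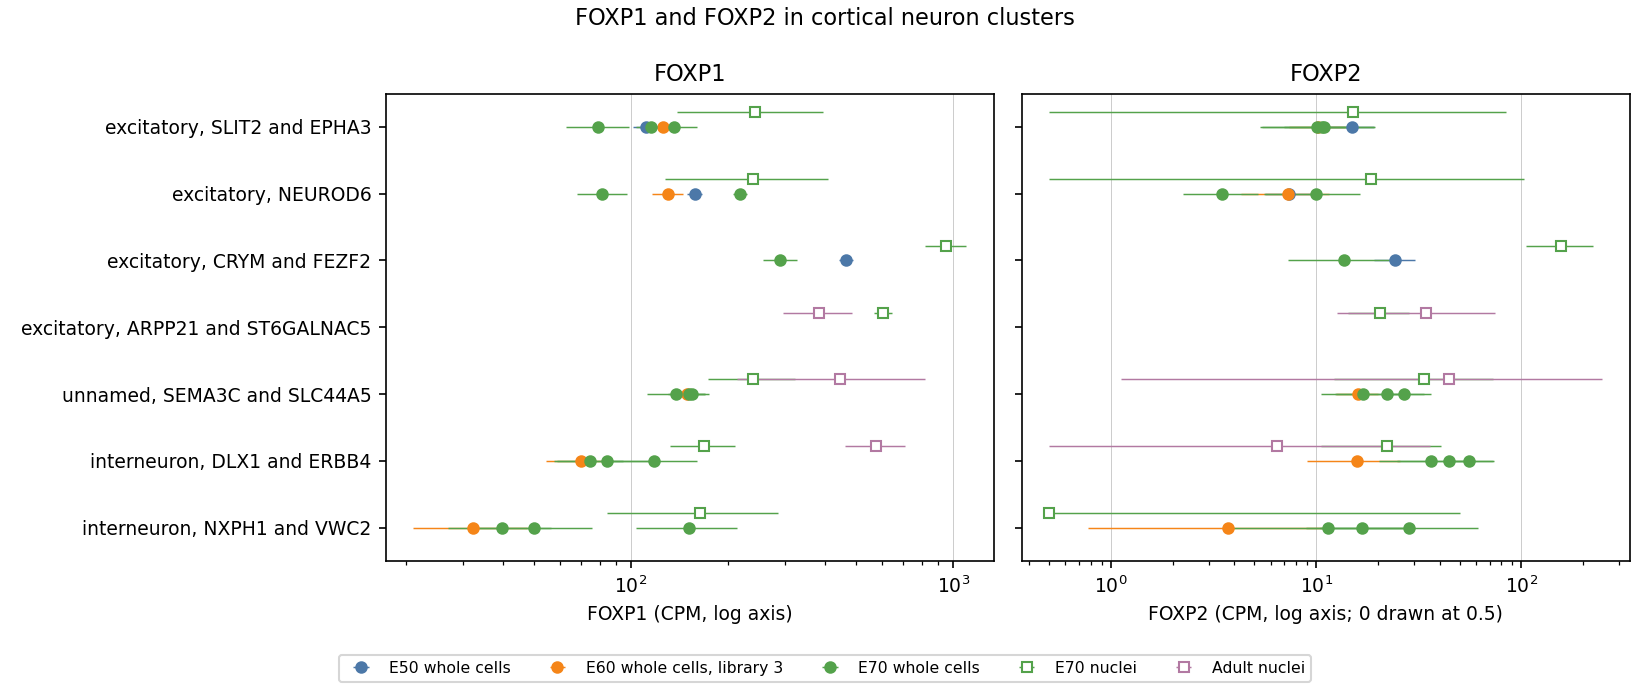
FOXP1 (left) and FOXP2 (right) in CPM on log axes in 7 clusters of cortical neurons, 1 point per library with the exact 95% Poisson interval; 0 is drawn at 0.5 on the right. The CRYM and FEZF2 cluster has the highest FOXP1 of the whole cells, at 464 and 290 CPM, and the DLX1 and ERBB4 interneurons reach 55.9 CPM of FOXP2.

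The ratio of the 2 genes was compared between excitatory-like and interneuron-like cells of the same library, as log2((FOXP2 CPM + 1)/(FOXP1 CPM + 1)), since gene length is then the same on both sides. The difference, excitatory-like minus interneuron-like, was 2.95 at E50, -1.45 in E60_3, and -1.69, -1.25 and -4.13 in E70_1, E70_2 and E70_3. It was below 0 in 4 of 5 libraries, with a mean of -1.12 ± 2.55 (SD, n = 5, exact sign-flip permutation test, two-sided, p = 0.4375, where 0.0625 is the smallest p that 5 libraries can give). Without E50_1, whose interneuron-like cells had no FOXP2 UMI, the mean was -2.13 (p = 0.125 in the exact test, the smallest p of 4 libraries). With the 3 UMIs that a count of 0 allows, the E50 difference would be -1.26.

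To see which genes go with FOXP1 and FOXP2 inside the excitatory class, excitatory-like whole cells with at least 1 UMI of the gene were summed per library and compared with those without. For FOXP1 this took 5 libraries with 69 to 1003 cells with a UMI, and for FOXP2 the 4 libraries with 25 to 142 such cells. Of 14682 genes, 72 (0.490%) differed with FOXP1 at an adjusted p under 0.05, 71 higher and 1 lower (edgeR), and of 13167 genes 50 (0.380%) differed with FOXP2, 44 higher and 6 lower. The count for FOXP1 fell to 16 without E50_1, 38 without E60_3 and 37 without E70_1, and that for FOXP2 to 28 without E70_3. Cells with a FOXP1 UMI were deeper, with a median of 9077 against 7769 UMIs at E50 and 8823 against 7089 in E70_3. Those with a FOXP2 UMI had 8957 against 8415 at E50, 11389 against 10878 in E70_2 and 8801 against 7747 in E70_3. In E60_3 they had 7998 against 8061. With every cell thinned to 2000 UMIs, 55 genes were called with FOXP1, of which 27 were among the 72, all in the same direction. The thinned fit was not run for FOXP2, so its calls have no such check of depth.

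Deep layer and subplate genes, which mark the first-born excitatory neurons, were higher where they were called. With FOXP1, 2 of 11 tested were called, both higher, against 0.490% of all genes. The median of the 11 was 0.51 against 0.02 over all genes, and DESeq2 called 0 of the 11. FEZF2, a regulator of subcortical projection neurons, was higher by 1.45 ± 0.26 (adjusted p = 0.0196, edgeR), with a mean of 45.4 against 16.2 CPM and higher in 3 of 5 libraries. CRYM, a thyroid hormone binding protein of deep layers, was higher by 0.92 ± 0.16 (adjusted p = 0.0176), with 183 against 93.6 CPM and higher in 3 of 5 libraries. NR4A2, a subplate factor, had 0.80 ± 0.17 (adjusted p = 0.0523) and passed in the thinned cells (0.74, adjusted p = 0.0146). No upper layer gene of 10 tested was called with FOXP1 (edgeR), and their median was -0.15. Of the 10, 6 had an unadjusted p under 0.05, against 1523 of 14682 genes in all, and DESeq2 called 0. LMO4, of upper layers, had 0.56 ± 0.14 (adjusted p = 0.0934, edgeR) and passed in the thinned cells (0.47, adjusted p = 0.0262).

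With FOXP2, 3 of 10 deep layer genes tested were called, all higher, and 1 of 10 upper layer genes, which was lower, against 0.380% of all genes. The medians of the lists were 0.47 and -0.25, against -0.02 over all genes. DESeq2 called 1 gene of each of these lists. CRYM was higher by 1.05 ± 0.17 (adjusted p = 0.00112, edgeR), with 305 against 157 CPM and higher in 3 of 4 libraries. TLE4, a corepressor of layer 6 neurons, was higher by 0.75 ± 0.11 (adjusted p = 0.000549) and in 3 of 4 libraries, and SOX5, which controls deep layer identity, by 0.46 ± 0.09 (adjusted p = 0.0140). POU3F2, a POU factor of upper layer neurons, was lower by 0.43 on the log2 scale (-0.43 ± 0.08, adjusted p = 0.00470) and lower in 4 of 4 libraries. TBR1, a partner of FOXP2 in layer 6, had 0.18 ± 0.19 (adjusted p = 0.956). The CRYM and FEZF2 cluster made up a larger share of the cells with a UMI than of those without. It held 30.9% against 5.19% for FOXP1 and 38.7% against 18.9% for FOXP2 at E50, and 7.51% against 1.22% and 18.03% against 3.83% in E70_3; its part in these differences was not tested.

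**Figure D5:**
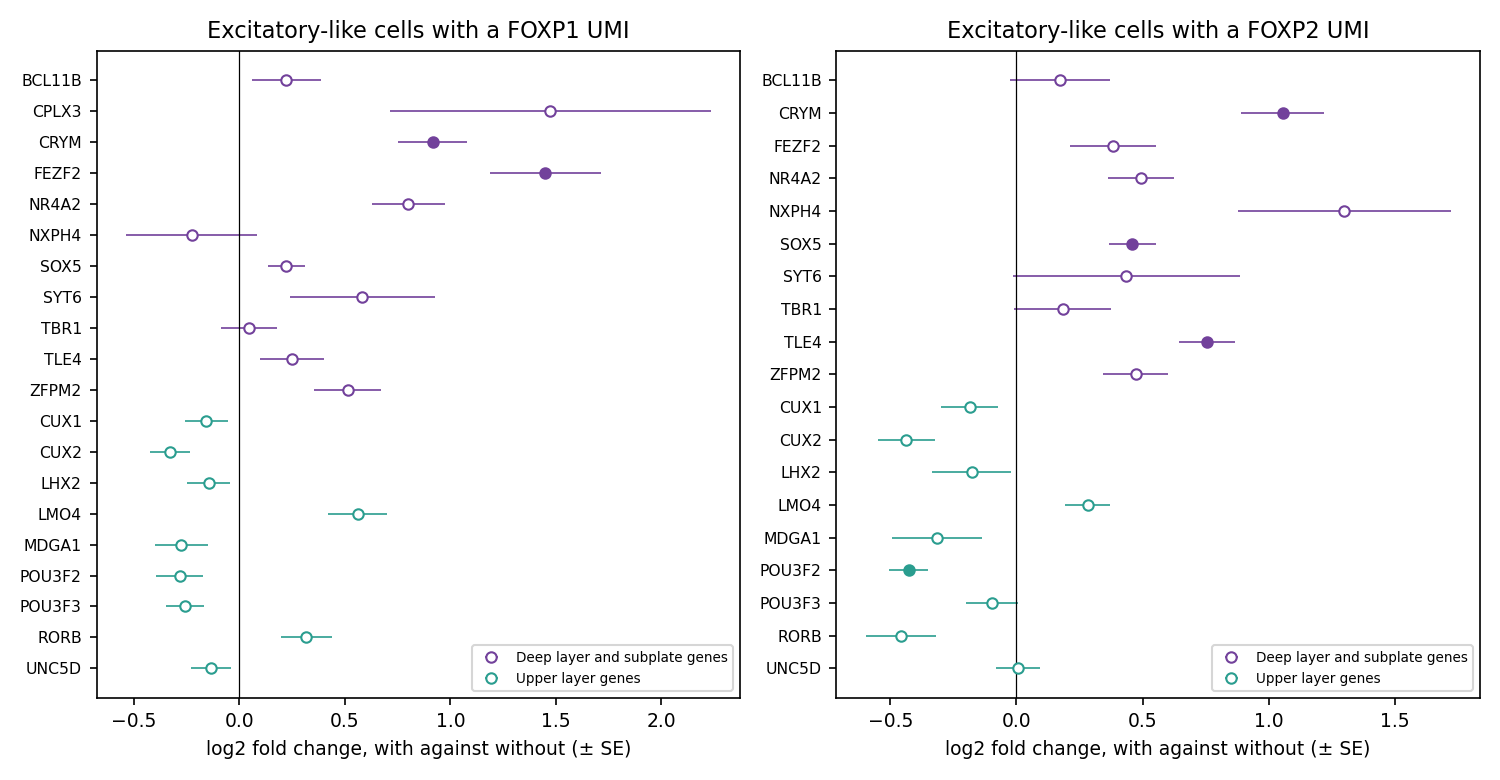
Log2 fold change of deep layer and subplate genes (purple) and upper layer genes (green), without 1 upper layer gene that is not reported here, in excitatory-like cells with against without a FOXP1 UMI (left) and a FOXP2 UMI (right), with SE bars; filled points have an adjusted p under 0.05. FEZF2 and CRYM are filled on the left, and CRYM, TLE4 and SOX5 on the right, where POU3F2 is filled below 0.

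Of the genes the study assigned to stellate cells, which it chose on these samples, so that their counts are not independent evidence, 0 of 9 were called with FOXP1 (edgeR; 3 had an unadjusted p under 0.05, and DESeq2 called 0) and 2 of 9 with FOXP2, both higher, of which DESeq2 called 0. Over all genes 0.490% and 0.380% were called, and with FOXP1 1523 of 14682 had an unadjusted p under 0.05. The medians of the 9 genes were 0.14 and -0.03. RELN, the extracellular glycoprotein of stellate and Cajal-Retzius cells, was higher with a FOXP2 UMI by 1.23 ± 0.22 (adjusted p = 0.00491, edgeR), with 171 against 70.4 CPM and higher in 3 of 4 libraries, and SOX5 was the other. With a FOXP1 UMI, RELN had 0.12 ± 0.14 (adjusted p = 0.826). RELN is also a Cajal-Retzius marker: of the 8 markers of that class 3 were tested with FOXP2 and RELN alone was called, and the summed level of the list was 66.0 to 709 CPM with a UMI and 77.6 to 162 CPM without, with 1 marker at 0. Of the diencephalic or midbrain markers TCF7L2 and LHX9 were called higher with FOXP2, of 5 tested, with a list sum of 125 to 277 CPM with a UMI and 123 to 188 CPM without. Of the fibroblast markers none of 6 was called, at 18.5 to 160 CPM and 24.1 to 144 CPM. None of 5 erythroid markers was called, at 277 to 9782 CPM and 258 to 1625 CPM. The part of other cell types in the FOXP2 result was not tested.

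Outside the lists, 24 genes passed the rule for naming with FOXP1, all higher. The largest were CDH9, a type II cadherin (1.69 ± 0.21, adjusted p = 0.00160, edgeR), CHSY3, which makes chondroitin sulfate (1.16 ± 0.24, adjusted p = 0.0407), PDE1A, a calmodulin-dependent phosphodiesterase (1.08), SCG2, a secretory granule protein (1.04), THY1, a surface glycoprotein of neurons (1.02), SLC35F2 (1.01) and the adhesion protein CNTN1 (1.01). PRICKLE2, of planar cell polarity, ENSSSCG00000017019 and OPCML, an IgLON adhesion protein, followed at 0.95, 0.94 and 0.93. In the thinned cells SLC35F2, PRICKLE2 and ENSSSCG00000017019 kept their sign and were not called (adjusted p = 0.127, 0.0575 and 0.112), and the other 7 were called.

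With FOXP2, 19 genes passed the rule higher and 5 lower. BRINP3 (1.06 ± 0.10, adjusted p = 1.49e-07, edgeR), a neural gene linked to the cell cycle, and LMO3 (1.07 ± 0.11, adjusted p = 5.94e-07), a LIM-only transcription cofactor, had the smallest adjusted p of those named, with 318 against 153 CPM and 173 against 82.0 CPM. LGALS1, a galectin, had the largest fold (2.29 ± 0.42, adjusted p = 0.00492), and EBF1, an early B-cell factor, came second (1.49 ± 0.28, adjusted p = 0.00642). GRM3, a metabotropic glutamate receptor (0.88), HCRTR2, an orexin receptor (0.86), LMO7 (0.74), OPCML (0.73), GSG1L, an AMPA receptor subunit partner (0.71), and PEG10, an imprinted gene of retroviral origin (0.65), were also higher. PID1, POU3F2, SLC44A5, SRGAP1 and FRMD4B were lower, by -0.43, -0.43, -0.34, -0.34 and -0.28. OPCML was on both lists, and the lists share the same excitatory-like cells.

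Genes described elsewhere as FOXP targets and partners of the FOXP proteins were also counted, against shares of 0.490% and 0.380% over all genes. An unadjusted p under 0.05 was found in 1523 of 14682 genes with FOXP1 and in 874 of 13167 with FOXP2. Of the targets, 0 of 9 tested were called with FOXP1 (edgeR; 3 at an unadjusted p under 0.05) and 0 of 8 with FOXP2 (edgeR; 0 at an unadjusted p under 0.05), and DESeq2 called 0 in each; the medians were 0.15 and 0.06. CNTNAP2, a neurexin-like gene known as a FOXP2 target, had 0.14 ± 0.07 with FOXP1 (adjusted p = 0.550, edgeR) and 0.06 ± 0.10 with FOXP2 (adjusted p = 0.991). The retinoic acid receptor RARB had 0.66 ± 0.16 with FOXP1 (adjusted p = 0.0755), higher in 5 of 5 libraries, and the receptor tyrosine kinase MET -0.49 ± 0.15 (adjusted p = 0.228), lower in 5 of 5 libraries. Of 14 partners and cofactors, 0 were called with FOXP1 (edgeR; 3 at an unadjusted p under 0.05, DESeq2 0) and 1 with FOXP2, SOX5. FOXP2 itself had 0.00 ± 0.22 in cells with a FOXP1 UMI (adjusted p = 0.9997), and FOXP1 had 0.24 ± 0.10 in cells with a FOXP2 UMI (adjusted p = 0.657), with 180 against 152 CPM.

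The 2 genes were also looked for in the same cells. With each cell thinned to 1000 UMIs, 15 excitatory-like cells held both, where 12.7 would be expected from the shares within each library, 58 endothelial-like cells against 58.4, 26 fibroblast-like cells against 25.2, 7 Purkinje-like cells against 5.45 and 11 diencephalic or midbrain glutamatergic-like cells against 10.3. These counts are small and are given as a description. Over 68 sums of a class in a library, log2(CPM + 1) of FOXP1 and FOXP2 had a Pearson correlation of 0.59. The genes most like FOXP1 over the same sums, of 8099 with a mean of at least 20 CPM, were MDFIC (0.88), CTNNA1 (0.87), REEP3 (0.86), CD2AP (0.85) and TMED10 (0.85), and those most like FOXP2 were EBF3 (0.77), EBF1 (0.74), ZNF423 (0.74), PDE5A (0.73) and DNAJC10 (0.72). EBF1 and EBF3 are early B-cell factors, and ZNF423 is a zinc finger protein that binds them. The sums share libraries and their depth, so these values carry no p.

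The other FOXP genes give a frame for these orders. FOXP4, the third family member of the brain, was higher in IP-like cells (1.89 ± 0.32, adjusted p = 2.19e-05, edgeR, with 5.18% of genes called higher), in fibroblast-like cells (1.37 ± 0.35, adjusted p = 0.00201, 17.4% of genes) and in microglia-like cells (1.02 ± 0.21, adjusted p = 4.99e-05, 25.6% of genes), and lower in astrocyte and radial glia-like cells (-0.66 ± 0.22, adjusted p = 0.0209, 8.49% of genes) and diencephalic or midbrain glutamatergic-like cells (-1.71 ± 0.57, adjusted p = 0.0337, 5.85% of genes). So FOXP1, FOXP2 and FOXP4 were each higher in fibroblast-like cells, and IP-like cells, where FOXP1 (-0.66 ± 0.29, adjusted p = 0.169) and FOXP2 (-1.30 ± 0.52, adjusted p = 0.117) were not called, had the largest value of FOXP4. FOXP3, the regulatory T cell factor, was called in none of the 13 classes (edgeR; unadjusted p under 0.05 in 1, interneuron-like cells).

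Nuclei and whole cells of the same class and stage could be compared in 1 library of nuclei at each stage, with no test. At E70 excitatory-like nuclei had 617 CPM of FOXP1 against 132, 80.6 and 195 CPM in whole cells, a ratio to their mean of 4.54, and 2.36% of 7788 genes had a ratio at least as high, where 21.4% were at least 2-fold higher in nuclei. Of the 387 nuclei, 263 lay in the ARPP21 and ST6GALNAC5 cluster, whereas most whole cells lay in the SLIT2 and EPHA3 cluster and the NEUROD6 cluster. In those clusters the nuclei had 243 and 240 CPM of FOXP1, against 79.1 to 136 and 81.6 to 218 CPM at E70, so the ratio was smaller within clusters. Astrocyte and radial glia-like nuclei had 646 against 215 to 261 CPM (24.9% of genes at least 2-fold higher) and interneuron-like nuclei 167 against 58.5 to 107 CPM (17.4% of genes). FOXP2 was 33.1 CPM in excitatory-like nuclei against 6.30 to 12.1 CPM in whole cells, 54.2 against 5.28 to 25.0 CPM in astrocyte and radial glia-like cells, and 19.0 against 25.7 to 37.8 CPM in interneuron-like cells, which alone of these classes had less in nuclei.

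In the adult, oligodendroglia-like nuclei had 794 CPM of FOXP1 against 324 CPM in whole cells (33.0% of genes at least 2-fold higher), and microglia-like nuclei 442 against 252 CPM (30.2% of genes). Adult excitatory-like nuclei had 403 CPM and adult interneuron-like nuclei 563 CPM, from 75 and 90 UMIs. FOXP2 in adult excitatory-like nuclei was 43.0 CPM, from 8 UMIs in 7 of 65 nuclei, and in adult interneuron-like nuclei 6.26 CPM, from 1 UMI in 54 nuclei. Adult microglia-like nuclei had 4.97 CPM of FOXP2, from 1 UMI, against 9.48 CPM in whole cells. Adult oligodendroglia-like nuclei had 24.6 against 8.35 CPM, and astrocyte and radial glia-like nuclei 30.1 against 12.0 CPM.

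The adult nuclei that fell into the fibroblast-like cluster stand apart. These 116 nuclei, 4.55% of the library, had 11494 CPM of FOXP1, from 1020 UMIs, which were 39.0% of all FOXP1 UMIs of the adult nuclei; the other adult nuclei had 709 CPM. A FOXP1 UMI was found in 111 of them, with a median of 8 and a highest of 47 UMIs per nucleus, and the 10 nuclei with most held 25.1% of the UMIs. Their leading genes were BNC2, SLC16A9, SLC47A1, FOXP1, BMP6 and TBX15. Of the genes that define fibroblasts few UMIs were found, with 10 of COL1A2 (113 CPM, against 6.67 CPM in the other adult nuclei), 2 each of COL1A1 and COL3A1 (22.5 CPM each, against 6.67 and 0.8896 CPM), 5 of DCN (56.3 against 30.7 CPM) and 0 of LUM. The name thus rests on few UMIs in these nuclei, whose median depth was 688.5 UMIs, and it was given to the cluster as a whole. FOXP2 in these nuclei was 180 CPM, from 16 UMIs. The 13 adult whole cells of the same cluster, under the number used elsewhere, had 1395 CPM of FOXP1.

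Adult whole cells were set against the fetal whole cell libraries class by class, again with no test for a single library. FOXP1 in endothelial-like cells was 499 CPM in the adult and 848 to 1222 CPM in 5 fetal libraries, and 35.9% of genes lay below every fetal library. In mural-like cells it was 248 against 363 to 509 CPM (39.9% of genes). It was higher in adult microglia-like cells, at 252 against 78.7 to 132 CPM (18.1% of genes above every fetal library), and in adult oligodendroglia-like cells, at 324 against 100 to 185 CPM (31.3% of genes). Different clusters held these cells: of 196 adult oligodendroglia-like whole cells 194 lay in the cluster of mature oligodendrocyte genes (MBP, MAG, MOG), which held 2 fetal whole cells, and most adult microglia-like cells lay in a cluster led by LTC4S. FOXP2 in endothelial-like cells was 11.3 CPM in the adult and 33.2 to 56.3 CPM in the fetus. FOXP1 in astrocyte and radial glia-like cells, at 217 CPM, and FOXP2 in the other classes compared lay within the fetal range.

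Between E60 and E70, where whole cells had 3 libraries each, no difference of FOXP1 or FOXP2 was called. Over all cells of a library FOXP1 was 422, 624 and 267 CPM at E60 and 211, 167 and 227 CPM at E70, and FOXP2 was 33.8, 33.8 and 21.7 CPM at E60 and 15.2, 19.0 and 14.3 CPM at E70. The ages did not overlap for either gene, and E60_3 lay nearest to E70. The change was -1.37 ± 0.43 for FOXP1 (adjusted p = 0.124, edgeR) and -1.10 ± 0.36 for FOXP2 (adjusted p = 0.125), in a fit that called 0 of 16743 genes, or 0% (4916 had an unadjusted p under 0.05 and DESeq2 called 2833). The exact two-sided permutation test of log2(CPM + 1) gave p = 0.1 for each gene, the smallest that 3 against 3 libraries allow. Without E60_3 both passed, at -1.70 (adjusted p = 0.0196) and -1.37 (adjusted p = 0.0201), whereas with E60_3 as the only E60 library they were -0.41 and -0.42 (adjusted p = 0.948 for each).

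Endothelial-like cells, the class with much FOXP1, were 9.72% and 24.1% of E60_1 and E60_2 and 2.11% to 2.74% of E60_3 and the E70 libraries, and they held 51.6% and 81.7% of all FOXP1 UMIs of E60_1 and E60_2, against 22.0% to 28.8% in the others. In such sums over all cells, fewer cells of a type and less RNA per cell cannot be told apart. The libraries were sequenced in pools, and within a pool FOXP1 differed by -0.23 (E70_3 against E60_3) and -0.998 (E70_1 against E60_1) and FOXP2 by -0.57 and -1.10.

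Within classes, FOXP1 in astrocyte and radial glia-like cells was 355, 237 and 266 CPM at E60 and 215, 250 and 261 CPM at E70 (-0.34 ± 0.31, adjusted p = 0.499, edgeR), with overlapping libraries, and differed by -0.03 and -0.72 within the pools. FOXP2 there had -0.01 ± 0.64 (adjusted p = 0.994), in a fit that called 0% of 14586 genes (3286 at an unadjusted p under 0.05, DESeq2 1195), and differed by 0.33 and -0.48 within the pools. In microglia-like cells FOXP1 had -0.38 ± 0.39 (adjusted p = 0.660, edgeR), with -0.63 and -0.27 within the pools. FOXP2 in microglia-like cells was 7.85, 15.1 and 14.98 CPM at E60 and 7.03, 4.40 and 0.972 CPM at E70, from 49, 44 and 33 against 2, 1 and 1 UMIs, and the ages did not overlap (-2.11 ± 0.80, adjusted p = 0.220, edgeR; p = 0.1 in the exact permutation test; -3.02 and -0.14 within the pools); that fit called 0.0176% of genes. In erythroid-like cells FOXP1 had -0.54 ± 0.75 (adjusted p = 0.742, edgeR; 0 of 2406 genes called, 380 at an unadjusted p under 0.05, DESeq2 225), with 0.26 and -0.93 within the pools, and FOXP2, too low to be tested, was at 0 in the 3 E70 libraries and in E60_3.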

How the data were processed

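Cells and nuclei of pig MEC were run on the 10X Genomics 3′ version 2 platform. The authors mapped the reads with Cell Ranger (version 2.20 in the submitters' processing notes) to Sscrofa11.1 with a pre-messenger RNA annotation of Ensembl, so that intronic reads were counted, and deposited 1 table of raw UMI counts per gene and cell for each library, with no normalization. Counts were analysed with Python 3.11.15 (numpy 2.4.6, scipy 1.17.1, scanpy 1.11.5, igraph 0.11.9) and R 4.3.3.

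After scaling each cell to 10000 UMIs and taking logs, 3000 variable genes without the 194 list and marker genes gave 50 principal components, libraries were joined by mutual nearest neighbours (k = 20), and Louvain clustering (resolution 1.6, 30 neighbours) followed. Scrublet scores marked 1077 cells (3.82%) as doublets, at an assumed 0.8% per 1000 cells of a library; they were kept, and removed as an alternative. UMI counts were summed per class and library (at least 20 cells) and tested with edgeR 4.0.16 (TMM scaling, filterByExpr, quasi-likelihood) at an adjusted p under 0.05. SE is the log2 fold change divided by the square root of F. DESeq2 1.42.0 was an alternative. Nothing says that replicate libraries came from separate litters, so p-values of E70 against E60 measure the spread between these libraries. The class fits and the fits of cells with against without a UMI had the library as a block. Their p-values measure how far differences within a library vary between these libraries. CPM used plain totals. Floors are 3 UMIs and intervals 95%.

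FOXP1, FOXP2 and all gene lists were chosen with earlier results of these data known. Genes were named from the lists and, beyond them, as the 10 largest changes in each direction among genes with an adjusted p under 0.05, a mean of at least 20 CPM and the same direction in every library. Of the 22452 genes, 7482 had no symbol in the tables, and 987 of these were named from RefSeq. Protein and promoter sequences were not used here. The values of 1 listed upper layer gene are not reported here, and it stays in the counts and medians of its lists. The scripts were tested on simulated data.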

Additional observations from a re-analysis of the deposited data

Results flagged for a closer look

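The difference in the log2 ratio of FOXP2 to FOXP1 between excitatory-like and interneuron-like cells was 2.95 at E50 and below 0 in the 3 E70 libraries (-1.69, -1.25 and -4.13), with a pseudocount of 1 CPM. At the 3 UMIs that a count of 0 allows, the E50 value would be -1.26, so its sign is not determined. The difference between the stages was not tested, as E50 had 1 library, and its interneuron-like cells held 0 FOXP2 UMIs in 27 cells.

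The adult nuclei of the cluster named fibroblast-like, which enter no comparison between groups, had 11494 CPM of FOXP1, against 709 CPM in the other adult nuclei. The value was seen in 1 library.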

How the results depend on the processing

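With other settings most results kept their direction and their side of the threshold; the exceptions follow, and the cause was not tested. FOXP1 in mural-like cells was no longer called with no filter on low counts (0.63), with sums of 50 cells (0.72), without batch correction (0.45) or at resolution 0.8 (0.67). FOXP1 in excitatory-like cells was called lower with RLE size factors (-0.56) and DESeq2 (-0.56), and in oligodendroglia-like cells with DESeq2 (-0.56), without batch correction (-1.02) and without erythroid-like cells (-0.59, chosen after seeing the data). FOXP2 was no longer called with sums of 50 cells in astrocyte and radial glia-like (-0.47) and excitatory-like cells (-0.70), nor without batch correction in oligodendroglia-like cells (-0.98), and was called in mural-like cells with sums of 50 cells (1.41). Without E60_1 and E60_2 the FOXP2 calls in astrocyte and radial glia-like (-0.25), excitatory-like (-0.57), microglia-like (-0.74) and oligodendroglia-like cells (-1.29) were lost. Values that were not called changed sign for FOXP1 in astrocyte and radial glia-like cells without batch correction (-0.046) and in erythroid-like cells at resolution 0.8 (0.38), and for FOXP2 in interneuron-like cells with sums of 50 cells (0.75), without batch correction (0.24) and without E60_1 and E60_2 (0.76), in erythroid-like cells with sums of 50 cells (0.33), in photoreceptor or pineal-like cells without doublets (-0.034) and, from E60 to E70, in astrocyte and radial glia-like cells without doublets (0.040) and without E60_1 and E60_2 (0.52). DESeq2 called FOXP1 over all cells lower at E70 (-1.35, adjusted p = 0.0295). The 72 genes called with a FOXP1 UMI became 371 with no filter, 16 with DESeq2, 36 without batch correction, 32 at resolution 0.8 and 28 with the SEMA3C and SLC44A5 cluster counted as excitatory (chosen after seeing the data); the 50 with FOXP2 became 141, 14, 28 and 29 with no filter, DESeq2, resolution 0.8 and that cluster. The fit with FOXP2 at 2000 UMIs was not run, as 1 library had 20 cells on each side.

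Leaving out 1 library at a time, FOXP1 ranged over 0.50 to 0.93 in mural-like, -0.61 to -0.17 in excitatory-like and -0.88 to -0.33 in oligodendroglia-like cells, and FOXP2 over -1.32 to -0.36 in astrocyte and radial glia-like, -1.51 to -0.67 in excitatory-like, -0.81 to 0.70 in interneuron-like, 0.63 to 1.54 in endothelial-like, -0.55 to 0.020 in erythroid-like and 0.37 to 1.48 in mural-like cells. From E60 to E70, FOXP1 over all cells ranged over -1.70 to -0.91, FOXP2 over -1.37 to -0.90, and FOXP2 in astrocyte and radial glia-like cells over -0.61 to 0.66. The counts ranged over 16 to 78 with FOXP1 and 28 to 43 with FOXP2. In the class fits, classes left with fewer than 3 libraries were dropped, so the mean of the other classes could change too.

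The replicate numbers of E60 and E70 are numbers only: deviations of same-numbered libraries had correlations of -0.14, 0.01 and -0.09 over all cells. With the number as a block FOXP1 had -1.26 and FOXP2 -1.06 over all cells (adjusted p = 0.275 for each), and the genes called went from 0 to 48 in erythroid-like cells, from 2 to 0 in microglia-like cells and stayed at 0 otherwise. Not every library correlated best with its own number. Depth limits FOXP2 in interneuron-like whole cells, with 0 to 64 UMIs in a sum.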
